A study of Mus musculus with 39 samples.

Results

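The regions described here were 2182 stretches of mouse chromatin that carried H3K4me1 in double-positive (DP) cells of naive extra-embryonic endoderm (nEnd) and lay in no consensus region of H3K27ac in any of the 3 sorted populations. nEnd is a culture model of the early endoderm of the mouse blastocyst, and its cells were separated by FACS into cells positive for OCT4-mCherry (Oct4+), cells positive for both OCT4-mCherry and PDGFRA (DP) and cells positive for PDGFRA (Pdgfra+). All populations came from 1 OCT4-mCherry reporter line and carried the label no treatment, and cultures are grown over feeder cells. The marks H3K4me1, H3K27ac, H3K27me3 and H3K9me3 were each profiled by CUT&Tag, in which an antibody brings a transposase to the marked nucleosomes, in 3 libraries of every population, 36 libraries in all. A consensus region was an interval merged over the 3 peak lists of a mark and population with a peak in at least 2 of them. Of 8068 DP H3K4me1 consensus regions, 5591 lay outside promoters (reaching from 1 kb before an annotated TSS to 100 bp past it), and 2182 of these (39.0%) overlapped no H3K27ac consensus region of Oct4+, DP or Pdgfra+ and no DP H3K27me3 consensus region. They made up 64.2% of the 3400 primed DP regions, those without DP H3K27ac or DP H3K27me3.

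Monomethylation of lysine 4 on histone H3 is placed by MLL3 and MLL4 at enhancers, often before the enhancer is in use, and acetylation of lysine 27 by p300 and CBP marks enhancers in use. Polycomb repressive complex 2 writes H3K27me3 over silent developmental genes, and H3K9me3 marks heterochromatin and silenced repeats. Enhancers that carry H3K4me1 alone are called primed. Primitive endoderm and epiblast arise side by side in the blastocyst, so primed regions in cells that express both OCT4 and PDGFRA are read beside genes of either lineage.

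Sequences are shown for the leading region of each set read one by one, so that the letters under the H3K4me1 maximum can be set beside its marks. Each run is 300 bases of the plus strand of GRCm38 (RefSeq) around the maximum of the strongest DP H3K4me1 peak, named by the gene with the nearest TSS, and capitals mark matches to the 12 short motifs described further on. Dnah6 led by DP signal, Lzts2 was the only region listed in all 9 H3K4me1 libraries, Slc26a9 led those listed in DP alone, Cfap65 led those with Oct4+ H3K27me3 and Zfp777 led those with H3K9me3 in all 9 libraries. The Dppa3 region was added after its values had been seen, because it joined a pluripotency gene with H3K9me3.
Dnah6, chr6:73161118-73161417: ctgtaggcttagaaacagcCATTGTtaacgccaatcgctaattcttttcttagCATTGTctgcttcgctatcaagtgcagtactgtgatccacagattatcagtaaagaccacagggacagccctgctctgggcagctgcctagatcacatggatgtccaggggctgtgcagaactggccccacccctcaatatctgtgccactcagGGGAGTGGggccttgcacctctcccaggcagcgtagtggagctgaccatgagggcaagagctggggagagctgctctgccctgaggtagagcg
Lzts2, chr19:45027920-45028219: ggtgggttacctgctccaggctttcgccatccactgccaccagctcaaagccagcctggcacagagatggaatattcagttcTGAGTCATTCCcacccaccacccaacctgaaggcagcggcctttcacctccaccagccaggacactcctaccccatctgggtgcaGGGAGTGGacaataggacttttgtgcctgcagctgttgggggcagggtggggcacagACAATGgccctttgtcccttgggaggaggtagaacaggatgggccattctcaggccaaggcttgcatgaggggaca
Slc26a9, chr1:131727920-131728219: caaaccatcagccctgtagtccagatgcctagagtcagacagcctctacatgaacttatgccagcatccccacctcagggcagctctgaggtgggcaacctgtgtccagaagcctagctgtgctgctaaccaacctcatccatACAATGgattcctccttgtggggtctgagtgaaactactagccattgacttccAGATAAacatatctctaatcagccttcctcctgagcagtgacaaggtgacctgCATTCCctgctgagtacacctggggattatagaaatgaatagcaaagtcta
Cfap65, chr1:74941680-74941979: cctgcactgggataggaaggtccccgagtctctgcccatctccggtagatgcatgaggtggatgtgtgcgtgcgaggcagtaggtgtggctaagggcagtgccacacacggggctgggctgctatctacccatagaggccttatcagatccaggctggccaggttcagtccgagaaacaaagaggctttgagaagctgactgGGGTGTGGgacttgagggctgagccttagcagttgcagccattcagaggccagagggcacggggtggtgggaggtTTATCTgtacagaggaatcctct
Zfp777, chr6:48016101-48016400: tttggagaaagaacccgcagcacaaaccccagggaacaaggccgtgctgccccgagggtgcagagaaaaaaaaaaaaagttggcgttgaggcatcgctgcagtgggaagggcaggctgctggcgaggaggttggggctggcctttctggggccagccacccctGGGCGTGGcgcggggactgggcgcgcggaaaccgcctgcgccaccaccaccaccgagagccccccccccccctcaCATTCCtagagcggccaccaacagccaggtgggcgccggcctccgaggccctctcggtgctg
Dppa3, chr6:122643226-122643525: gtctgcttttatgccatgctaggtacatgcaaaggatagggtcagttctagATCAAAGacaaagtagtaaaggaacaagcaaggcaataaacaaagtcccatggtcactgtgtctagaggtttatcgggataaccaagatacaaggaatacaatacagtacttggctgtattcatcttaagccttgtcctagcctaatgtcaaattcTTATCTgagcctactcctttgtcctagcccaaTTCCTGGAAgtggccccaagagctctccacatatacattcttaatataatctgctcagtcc
The Dnah6 window held 2 SOX matches and 1 KLF match, the Lzts2 window 1 match each to SOX, AP-1, KLF and TEAD (the AP-1 and TEAD matches overlap), and the Slc26a9 window 1 each to SOX, GATA and TEAD. The Cfap65 window held 1 GATA and 1 KLF match, the Zfp777 window 1 KLF and 1 TEAD match at 67.3% GC, and the Dppa3 window 1 match each to TCF/LEF, GATA and STAT at 41.7% GC.

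The lists differed widely in length, from 1074 to 16057 peaks for H3K4me1, from 3079 to 65131 for H3K27ac, from 1143 to 8672 for H3K27me3 and from 5322 to 29970 for H3K9me3. Sequencing depth is unknown, since no source used here states it, and the absence of a peak from a list does not show that the mark was absent. The sorted populations were checked at promoters: H3K27ac was listed at the Nanog promoter in 3 Oct4+, 0 DP and 0 Pdgfra+ libraries, at Pou5f1 (OCT4) in 3, 1 and 1, at Pdgfra in 0, 2 and 3, at Gata4 in 0, 2 and 2, at Gata6 in 2, 3 and 3 and at Sox17 in 0, 2 and 0.

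The description of these regions as unacetylated held for consensus regions and not for single libraries, so they are called consensus-unacetylated here. Of the 2182, 1025 (46.98%) touched no H3K27ac peak in any of the 9 libraries, 863 (39.6%) touched one in 1 library, 247 (11.3%) in 2, 41 in 3 and 6 in 4. The Oct4+ lists touched 11.6%, 28.8% and 0.367% of them in replicates 1 to 3, the DP lists 11.6%, 0% and 12.5%, and the Pdgfra+ lists 0.962%, 2.34% and 0.779%. The highest share belonged to Oct4+ replicate 2, the longest H3K27ac list (65131 peaks), while Oct4+ replicate 3 held 8574 peaks and DP replicate 2 held 3079. The rule fixed these shares to be low, and they are given as a description. In all, 828 regions (37.9%) had H3K4me1 as their sole listed mark across the 27 libraries of the other marks. The rule fixed this share in part, and no share of all DP regions stands beside it.

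Values on either side of the acetylation threshold are given with no test. The 1122 consensus-unacetylated regions with H3K27ac in 1 of 3 libraries of some population, just inside the threshold, had a median width of 4007 bp and a median percentile of DP H3K4me1 maximum signal of 56.6 (the mean rank over the DP lists that hold the region). The 763 primed regions just outside it, with H3K27ac in 2 of 3 libraries of a population at most, had 4252 bp and 52.8. The 1025 regions with no H3K27ac peak at all had 3615 bp and 51.0.

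By construction every region was listed in at least 2 DP H3K4me1 libraries, and the 3 lists contributed unequally. DP replicates 1 to 3 listed 895 (41.0%), 2103 (96.4%) and 2080 (95.3%) of the 2182, and 714 (32.7%) were in all 3. DP replicate 1 had the shortest of these lists (4371 peaks against 11874 and 11334), so most regions rested on replicates 2 and 3. The regions had a median width of 3836 bp (5th to 95th percentile 2209 to 7710 bp) and covered 9.24 Mb. The 1185 primed regions with an Oct4+ H3K27ac consensus region (Oct4+ acetylated primed regions) had a median width of 4343 bp, and the 1850 regions with DP H3K27ac and no DP H3K27me3 (DP active regions) 5416 bp. In DP replicate 2 the median maximum signal, in units of fragment coverage not scaled to depth, was 17 at consensus-unacetylated, 17 at Oct4+ acetylated primed and 20 at DP active regions, against 16 for the whole list.

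Outside DP cells, H3K4me1 was sparse at these regions in most libraries. Oct4+ replicates 1 to 3 listed 6.37%, 23.7% and 10.7% of the regions (13.6 ± 9.04%, mean ± SD, n = 3) and Pdgfra+ replicates listed 8.75%, 4.54% and 55.5% (22.9 ± 28.3%, n = 3). Pdgfra+ replicate 3, whose list held 10620 peaks against 1723 and 1074, stood far above the others, and the ranges of the populations overlapped. The difference of -9.32 percentage points (Oct4+ minus Pdgfra+) was within the spread between libraries (exact two-sided permutation test, p = 0.9, adjusted p = 0.9 over 9 tests), and 3 libraries against 3 cannot give a p below 0.1. Without Pdgfra+ replicate 3 the difference turned to 6.97 points. With every list held to the length of the shortest, which left 223 regions, the ranges no longer overlapped. The shares were 12.1%, 12.6% and 12.1% in Oct4+ and 30.5%, 31.8% and 39.9% in Pdgfra+ (difference -21.8 points, exact permutation p = 0.1, the smallest possible, adjusted p = 0.281). At all DP H3K4me1 regions outside promoters the shares were then 20.3%, 25.4% and 23.4% in Oct4+. In Pdgfra+ they were 37.2%, 38.6% and 51.6%, so a gap in this direction was not particular to the consensus-unacetylated regions.

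Counted region by region, 250 (11.5%) carried H3K4me1 in at least 2 of 3 Oct4+ libraries, beside 29.1% of all 5591 DP regions outside promoters, and 243 (11.1%) in at least 2 of 3 Pdgfra+ libraries, beside 20.1%. The mark was in at most 1 library of each of these populations at 1722 regions (78.9%, beside 57.9%) and in none of the 6 at 689 (31.6%, beside 18.3%). Only 33 (1.51%, beside 7.05%) had it in at least 2 libraries of both. It was in 3 of 3 Oct4+ and 0 of 3 Pdgfra+ libraries at 52 (2.38%, beside 4.65%), in 3 of 3 Pdgfra+ and 0 of 3 Oct4+ libraries at 27 (1.24%, beside 2.68%), and in all 9 libraries at 1 (0.0458%, beside 1.11%). A single long list weighed on these counts, since 756 regions (34.6%) were found among the 6 in Pdgfra+ replicate 3 alone and 121 (5.55%) in Oct4+ replicate 2 alone. H3K4me1 in 3 of 3 DP libraries and 0 of the other 6 marked 138 regions (6.32%), a description with no share of all regions beside it. The 5591 regions given beside these counts include those in H3K27ac consensus regions, which the rule barred. Of the primed regions with an Oct4+ H3K27ac consensus region, 10.4% had H3K4me1 in at least 2 of 3 Pdgfra+ libraries. In Oct4+ libraries the same share was 50.1%, and at DP active regions the shares were 36.5% in Pdgfra+ and 36.8% in Oct4+. The low Pdgfra+ share was thus not particular to the consensus-unacetylated regions.

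**Figure D1:**
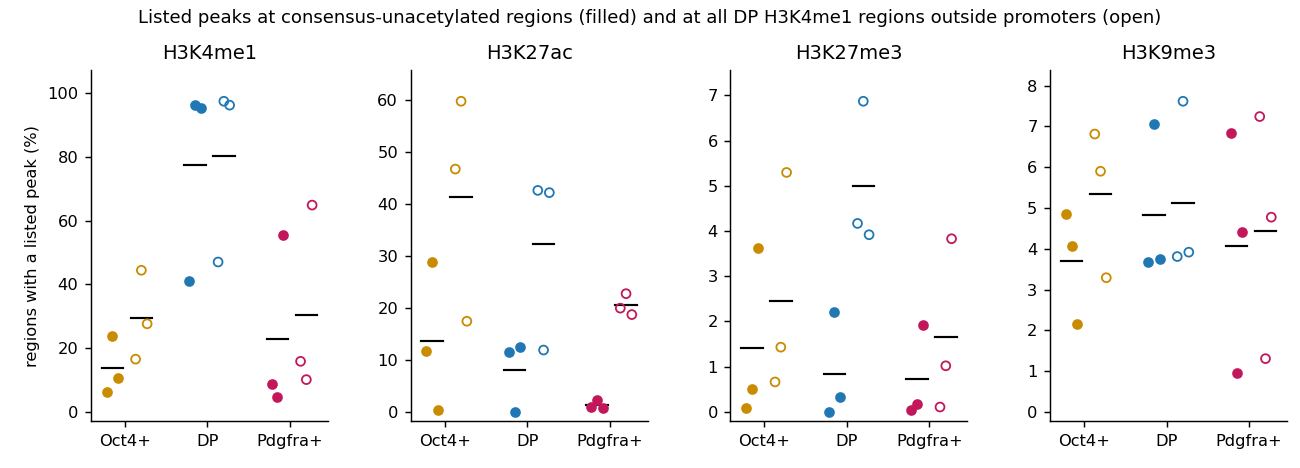
Share of regions with a listed peak (%, y axis) in each library of the 3 populations (x axis), 1 panel per mark with its own scale, for the 2182 consensus-unacetylated regions (filled points) and all 5591 DP H3K4me1 regions outside promoters (open points). Points are single libraries and bars are means of 3. In the H3K4me1 panel Pdgfra+ replicate 3 sits at 55.5% and the other Oct4+ and Pdgfra+ libraries at 4.54 to 23.7%; DP H3K4me1, all H3K27ac and DP H3K27me3 values are set by the rule that chose the regions.

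The comparison with the other classes asked whether consensus-unacetylated regions also differed in H3K4me1 in the flanking populations, which the rule did not use directly. The rule barred H3K27ac consensus regions of Oct4+ and Pdgfra+, which DP active regions could hold. Mean H3K27ac shares at DP active regions were 54.5% in Oct4+ and 55.2% in Pdgfra+, beside 13.6% and 1.36%. The study defines active enhancers by both marks, so the comparison was not independent of the rule, whose part in it was not tested. In every one of the 6 libraries the H3K4me1 share was lower than at DP active regions, which had 20.8%, 53.2% and 34.7% in Oct4+ and 29.4%, 20.3% and 87.1% in Pdgfra+ replicates 1 to 3. The mean within-library difference was -22.6 ± 7.03 points (exact two-sided sign-flip permutation test over 6 libraries, p = 0.0312, adjusted p = 0.0703), and 0.03125 is the smallest p that 6 libraries allow. Active regions were also wider, and with a fixed 1 kb window at the H3K4me1 maximum the difference was -19.1 points (adjusted p = 0.141, exact sign-flip test).

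Against Oct4+ acetylated primed regions the direction depended on the population. Those regions had H3K4me1 in 28.9%, 68.0% and 48.3% of cases in Oct4+ replicates 1 to 3, higher than the consensus-unacetylated regions in 3 of 3, and in 8.02%, 3.97% and 49.96% in Pdgfra+, lower in 3 of 3. The difference (consensus-unacetylated minus Oct4+ acetylated) was -34.8 ± 11.1 points in Oct4+ and 2.28 ± 2.82 points in Pdgfra+ (n = 3 each). Over all 6 libraries it was -16.3 ± 21.6 points (exact sign-flip test, p = 0.25, adjusted p = 0.45). The split between populations had an exact permutation p of 0.1, the smallest possible (adjusted p = 0.2 over 6 such tests). The Oct4+ acetylated class was itself chosen on H3K27ac of Oct4+ cells, though not on these libraries.

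H3K27me3, which the rule barred in DP consensus regions alone, was rare in the other populations. Oct4+ replicates 1 to 3 listed 0.0917%, 0.504% and 3.62% of the regions (1.41 ± 1.93%) and Pdgfra+ 0.0458%, 0.183% and 1.93% (0.718 ± 1.05%), with overlapping ranges (difference 0.687 points, p = 0.6 by exact permutation, adjusted p = 0.844). It reached at least 2 of 3 Oct4+ libraries at 11 regions (0.504%, beside 1.52% of all regions, which include the 284 DP bivalent ones) and at least 2 of 3 Pdgfra+ libraries at 5 (0.229%, beside 1.04%). Shares were higher than at Oct4+ acetylated primed regions in 6 of 6 libraries, by 0.485 ± 0.778 points (exact sign-flip p = 0.0312, adjusted p = 0.0703), and higher than at DP active regions in 4 of 6, by 0.233 ± 0.664 points (exact p = 0.656, adjusted p = 0.844). The first of these differences was 2.02 and 0.575 points in replicate 3 of Oct4+ and Pdgfra+ and between 0.0145 and 0.167 points in the other 4 libraries. It was 0.179 points without Oct4+ replicate 3 and 0.0416 points (exact sign-flip p = 1) with replicate 3 left out of every list. The second was -0.0298 points without Pdgfra+ replicate 3.

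H3K9me3, used nowhere in the rule, was listed at few of these regions in every population. Oct4+ replicates 1 to 3 listed 4.86%, 4.08% and 2.15% (3.70 ± 1.39%), DP 3.67%, 7.06% and 3.76% (4.83 ± 1.93%) and Pdgfra+ 6.83%, 0.962% and 4.40% (4.06 ± 2.95%). The populations overlapped (exact permutation test of the F statistic over 9 libraries, p = 0.843, adjusted p = 0.9). At least 2 of 3 libraries listed it at 66 regions in Oct4+ (3.02%, beside 4.63%), 91 in DP (4.17%, beside 4.08%) and 78 in Pdgfra+ (3.57%, beside 3.92%). No H3K9me3 library listed 1884 regions (86.3%, beside 84.3%), and at least 6 of 9 listed 29 (1.33%, beside 1.93%).

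Within each library H3K9me3 was listed less often at consensus-unacetylated than at Oct4+ acetylated primed regions, in 9 of 9 libraries and with a mean difference of -1.51 ± 1.72 points (exact two-sided sign-flip permutation test, p = 0.00391, the smallest that 9 libraries allow, adjusted p = 0.0352). Against DP active regions it was lower in 8 of 9 libraries, with a mean difference of -1.37 ± 1.15 points (exact p = 0.00781, adjusted p = 0.0352). Both calls held without DP replicate 1 (adjusted p = 0.0352) and were lost without any other single library (adjusted p = 0.0703 each, exact sign-flip tests), while the differences stayed between -1.68 and -1.11 points and between -1.54 and -1.12 points. Against Oct4+ acetylated regions the exact p was 0.00781 whichever library was left out, the smallest that 8 libraries allow. The loss of that call therefore cannot show dependence on a single library. Against DP active regions the exact p was 0.0156 where the call was lost. Every library was read at the same regions, so the 9 within-library differences need not be independent. The p-values of these sign-flip tests cover no variation between regions. Most of the gap lay in Oct4+ libraries, with -3.59 ± 1.44 points against the Oct4+ acetylated and -2.81 ± 0.486 points against the active regions. In DP the differences were -0.517 ± 0.2995 and -0.434 ± 0.445 points and in Pdgfra+ -0.437 ± 0.206 and -0.855 ± 0.181 points. These differences were not shown to vary between populations after adjustment (exact permutation of the F statistic, adjusted p = 0.0857 and 0.0643 over 6 tests). Taken as a ratio to the share at all 5591 regions of the same library, H3K9me3 was 0.713, 0.691 and 0.654 in Oct4+, 0.962, 0.926 and 0.959 in DP and 0.943, 0.737 and 0.921 in Pdgfra+ (p = 0.00714 by the exact permutation of the F statistic, adjusted p = 0.0234). H3K9me3 was not in the rule, but the classes compared were set by H3K27ac. Mean Oct4+ H3K27ac shares were 13.6% at consensus-unacetylated, 76.15% at Oct4+ acetylated and 54.5% at DP active regions. The H3K9me3 comparisons were thus not independent of the rule, whose part in them was not tested.

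The consensus-unacetylated regions were also the narrowest of the classes, and both H3K9me3 calls were lost when each region was reduced to a 1 kb window at its H3K4me1 maximum. There the difference was -0.807 points from Oct4+ acetylated regions (adjusted p = 0.141) and -0.0659 points from DP active regions (adjusted p = 0.921, exact sign-flip tests). In these windows the Oct4+ shares were 1.99 ± 0.815% at consensus-unacetylated, 4.05 ± 1.83% at Oct4+ acetylated and 3.17 ± 1.28% at DP active regions. The DP shares were 2.38 ± 0.9925%, 2.53 ± 1.16% and 1.68 ± 0.664% in the same order, and the Pdgfra+ shares 2.15 ± 1.696%, 2.36 ± 1.66% and 1.87 ± 1.165%. In DP and Pdgfra+ the mean share was thus higher, not lower, than at DP active regions.

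**Figure D2:**
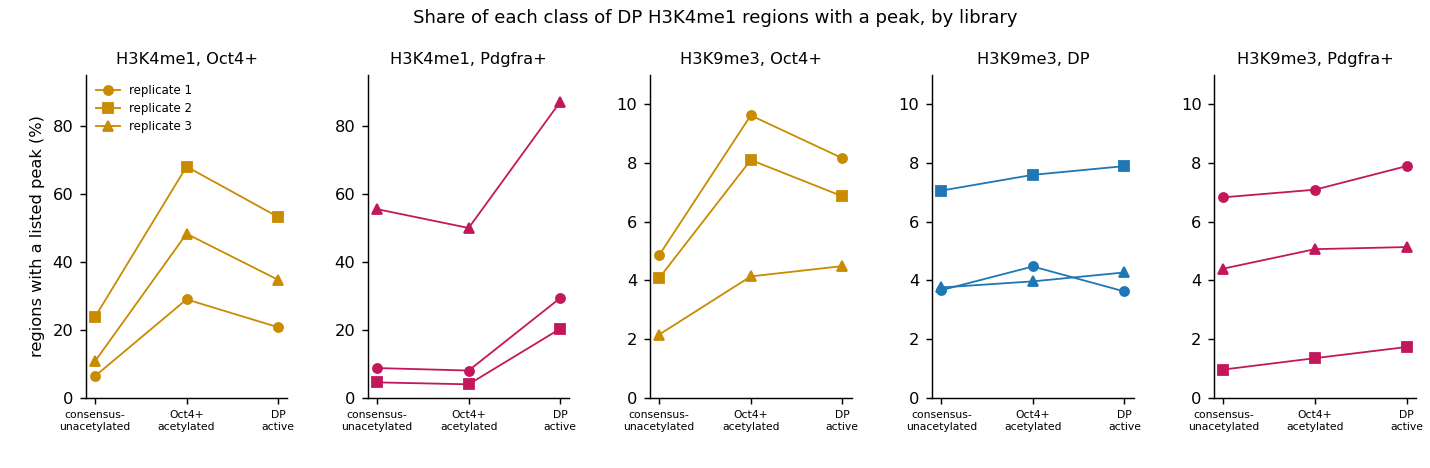
Share of regions with a listed peak (%, y axis) for consensus-unacetylated, Oct4+ acetylated primed and DP active regions (x axis), with lines joining the values of 1 library. H3K4me1 in Oct4+ rises from 6.37 to 23.7% at consensus-unacetylated regions to 28.9 to 68.0% at Oct4+ acetylated regions, and the H3K9me3 gap is widest in the Oct4+ panel (2.15 to 4.86% against 4.13 to 9.62%).

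Most of the regions were distal. By annotation 1150 (52.7%) were centred in introns, 953 (43.7%) between genes and 79 (3.62%) in exons, whereas 62.0% of DP active regions were intronic and 34.5% intergenic. The median distance from the nearest edge to the nearest TSS was 27.5 kb, as against 27.4 kb for Oct4+ acetylated and 20.1 kb for DP active regions, and 10.9% lay within 5 kb of a TSS as against 10.4% and 21.8%. A total of 317 (14.5%) lay over 100 kb from any TSS, beside 14.0% of Oct4+ acetylated, 9.68% of DP active and 12.6% of all regions. The nearest H3K27ac consensus region of any population was a median of 12 kb away, and 612 regions (28.1%) had one within 5 kb, while 360 (16.5%) had none within 50 kb. Distances to H3K27ac were not measured for the other classes, and the rule barred overlap with its consensus regions. All values of this paragraph are descriptions with no test.

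Genes were assigned by a TSS within 20 kb. Of 21911 protein-coding genes, 1151 (5.25%) had a consensus-unacetylated region in this distance. Among 6 lists of 25 genes, the counts were 8 for pluripotency (32%), 7 for endoderm (28%), 3 for the JAK/STAT pathway (12%), 1 for trophectoderm (4%) and 0 each for formative and primed pluripotency and for mesoderm and neural genes. DP active regions lay near 6 pluripotency genes, 11 endoderm genes, 3 JAK/STAT genes and 4 trophectoderm genes, with 5.55% of all genes, and Oct4+ acetylated regions near 6, 1, 2 and 1, with 2.83% of all genes. The whole set of 5591 DP H3K4me1 regions outside promoters lay near 14 (56%), 16 (64%), 8 (32%) and 7 (28%), with 13.6% of all genes. A share above that of all genes was thus not particular to the consensus-unacetylated regions. The lists hold well-known genes chosen with earlier results of these data known, and no test was made of them. The 21 regions near listed genes included 12 with no H3K27ac peak in any of 9 libraries, 9 present in all 3 DP lists and 7 without H3K4me1 in any Oct4+ or Pdgfra+ library. Over all 2182 regions these shares were 46.98%, 32.7% and 31.6%, so the counts are descriptions and set the 21 regions apart in nothing tested.

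**Figure D3:**
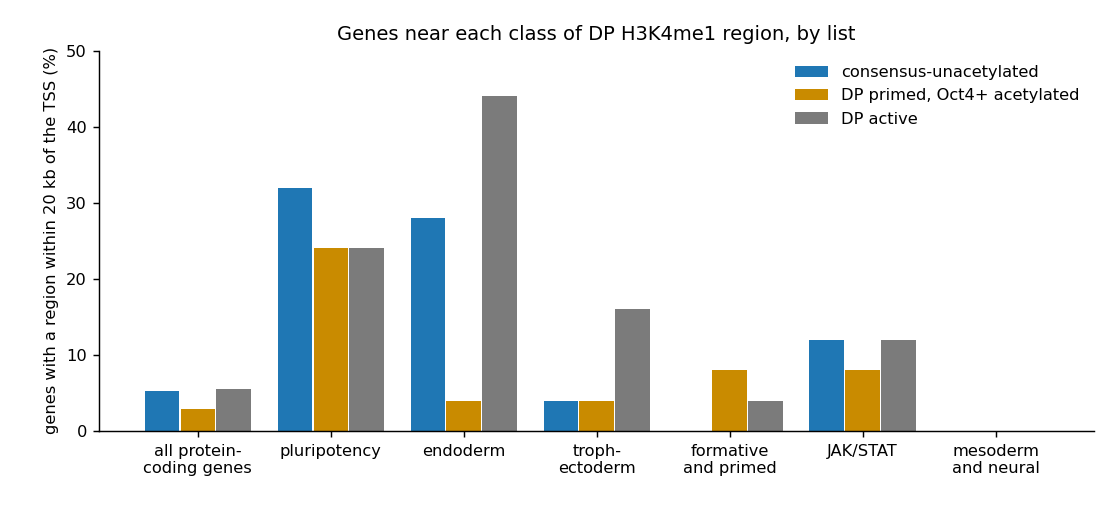
Percentage of genes (y axis) of each list of 25, and of all 21911 protein-coding genes, with a region within 20 kb of the TSS, for the 3 classes of DP region (bars). Pluripotency genes reach 32% and endoderm genes 28% for consensus-unacetylated regions, against 5.25% of all genes. For all DP H3K4me1 regions outside promoters, not drawn, the values are 56% and 64%, against 13.6% of all genes. With 25 genes in a list, 1 gene is a step of 4 points.

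Pluripotency factors came first among these genes. The region 7.70 kb downstream of the TSS of Klf4, a Krüppel-like factor of the naive network (chr4:55521644-55524765), had H3K4me1 maxima of 7, 11 and 9 in DP replicates 1 to 3 and was otherwise listed in Oct4+ replicate 2, with a maximum of 10. The region 18.7 kb upstream of Klf5 (chr14:99273002-99279950), a related factor, had DP maxima of 13, 23 and 20, Oct4+ maxima of 6, 15 and 6 and Pdgfra+ maxima of 7 and 14 in replicates 2 and 3. Klf5 was thus the one gene of the pluripotency list whose region carried the mark in 8 of 9 libraries, and 1 Oct4+ library listed H3K27ac there. The study itself counts Klf5 and Tbx3 among genes of the early primitive endoderm. Near Tbx3, a T-box factor, the region 14.1 kb downstream (chr5:119684800-119687982) had DP maxima of 18 and 11 in replicates 2 and 3, 16 in Oct4+ replicate 2 and 12 in Pdgfra+ replicate 3. Near Prdm14, a germline and naive pluripotency regulator, the region lay 17.4 kb upstream in an intron of Ncoa2 (chr1:13144547-13148322), with DP maxima of 15 and 14 in replicates 2 and 3, Oct4+ maxima of 19 and 12 in the same replicates and 19 in Pdgfra+ replicate 3. Maxima are not scaled to depth and cannot be ranked between libraries.

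Regions near 4 other pluripotency genes carried H3K4me1 in DP alone. Near Dppa3, which shields maternal DNA methylation in the zygote, the region 15.8 kb downstream (chr6:122642258-122645728) had maxima of 16, 27 and 18 in DP and no listed H3K4me1 or H3K27ac elsewhere, yet H3K9me3 was listed there in 2 Oct4+, 3 DP and 3 Pdgfra+ libraries. It was the sole one of the 21 regions with any H3K9me3 peak. Near Dppa4, a chromatin protein of pluripotent cells, the region lay 3.003 kb downstream of the TSS within the gene (chr16:48286736-48290065), with DP maxima of 10, 18 and 10. Near Tet2, a dioxygenase that oxidises 5-methylcytosine, it lay 2.49 kb upstream (chr3:133547627-133550924), with maxima of 17 and 13 in DP replicates 2 and 3, and near Tcl1, a coactivator of AKT, 9.22 kb downstream (chr12:105209425-105213577), with 11 and 10. None of these 4 regions had an H3K27ac or H3K27me3 peak in any library.

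Endoderm genes were represented by transcription factors and by matrix and surface proteins. For Gata6, the factor that specifies primitive endoderm, the region 10.46 kb upstream (chr18:11038121-11041599) had DP maxima of 14, 27 and 11, Oct4+ maxima of 11 and 7 in replicates 2 and 3 and 11 in Pdgfra+ replicate 3. The Sox7 region 19.7 kb downstream (chr14:63963383-63971408) was listed in DP alone, with 7, 15 and 15. Lrp2, which encodes the endocytic receptor megalin, had a region 16.1 kb upstream (chr2:69602127-69611106), with 20 and 9 in DP replicates 2 and 3 and 5 and 15 in Pdgfra+ replicates 2 and 3, and none listed in Oct4+.

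Intronic regions of the laminin chain genes Lama1 and Lamc1 were wide. In Lama1 (chr17:67703588-67718559, 14972 bp) the DP maxima were 11 and 14 in replicates 2 and 3, and H3K27ac was listed in 1 Oct4+, 2 DP and 1 Pdgfra+ library without joining into a consensus region. In Lamc1 (chr1:153312557-153326114, 13558 bp) the DP maxima were 11, 27 and 13 and the Oct4+ maxima 8, 13 and 15. Dkk1, a secreted WNT antagonist, had a region on each side of its TSS, 19.1 kb downstream (chr19:30524241-30530556; 12, 19 and 11 in DP) and 1.32 kb upstream (chr19:30550984-30554848; 6, 15 and 6 in DP, with H3K27me3 in 1 Oct4+ library). Among trophectoderm genes, Hand1 alone had a region, 15.6 kb downstream (chr11:57813066-57817177), with 10 and 13 in DP replicates 2 and 3 and 19 in Oct4+ replicate 2.

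In the JAK/STAT list, the genes with regions encode both signalling receptor chains for LIF and a feedback inhibitor. Lifr had a region 6.25 kb upstream (chr15:7076301-7084365), with DP maxima of 19 and 13 in replicates 2 and 3, 9 in Oct4+ replicate 3 and 15 in Pdgfra+ replicate 3, and another 19.4 kb downstream in its own intron (chr15:7110021-7113114), with 16 and 11 in DP alone. Il6st, which encodes gp130, had a region 7.36 kb upstream (chr13:112453500-112456711), with 15 and 9 in DP and 13 in Pdgfra+ replicate 3. Socs1, the inhibitor, had a region 15.9 kb downstream (chr16:10763189-10769594), with 13 and 12 in DP alone and H3K27me3 in 1 Oct4+ library. No region of this list was in DP replicate 1, which listed 41.0% of all 2182 regions.

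The strongest consensus-unacetylated regions, ranked by DP maximum signal, lay near genes of varied function. The first was in an intron of Dnah6, an axonemal dynein heavy chain (chr6:73158703-73162318), with DP maxima of 29, 50 and 41, and it was also listed in 3 of 3 Pdgfra+ and 0 of 3 Oct4+ H3K4me1 libraries. The second, 82.3 kb downstream of Rybp, a Polycomb repressive complex 1 subunit (chr6:100201044-100205229), had 33, 43 and 32 and was listed in 3 Oct4+ and 2 Pdgfra+ libraries. The others lay near Prss51, Gm47985, Fam83c, Slc26a9, Dzip1, Rpusd3, Slc5a11 and Eml4, and of the 10 only Rybp had H3K4me1 in more than 1 Oct4+ library, while 5 had it in at least 2 Pdgfra+ libraries. The region near Prss51 was the widest of all 2182, at 25593 bp.

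The remaining sets were read by their pattern of marks. Lzts2, a leucine zipper protein, had the nearest TSS to the region in all 9 H3K4me1 libraries (chr19:45025632-45029839, in an intron of Pdzd7), with DP maxima of 18, 42 and 24. The leading regions listed in DP alone lay near Slc26a9, an anion transporter (29, 34 and 36), Has2, hyaluronan synthase (23, 26 and 26), Spry2, an inhibitor of receptor tyrosine kinase signalling (22, 30 and 20, at 290 kb), Rab11fip4 (22, 28 and 21) and Aldh1l1, a folate enzyme (16, 36 and 21). Of the 11 regions with Oct4+ H3K27me3, the leading ones lay near Cfap65, the polarity gene Crb2, the adenosine receptor gene Adora1, Rnf207 and Gm49361, the last in an intron of the Hippo kinase gene Lats2. Cfap65 (chr1:74940249-74945932) had H3K27me3 in 3 of 3 Oct4+, 1 DP and 0 Pdgfra+ libraries. H3K9me3 was listed in 9 of 9 libraries near Zfp777, a zinc finger gene, Hpse, heparanase, Cmtm8, Cbx3, which encodes the heterochromatin protein HP1 gamma, and Zbtb10.

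The DNA at the H3K4me1 maximum was described in 400 bp windows. Median GC was 48.5% (interquartile range 45.2 to 51.8%), as against 49.5% at both Oct4+ acetylated and DP active regions and 41.7% for the genome, and a median of 11% of the window was repeat-masked, as against 36.4% of the genome. Each of 12 short motifs was searched on both strands. A core letter run of GATA factor sites, AGATAA, was in 42.1% of consensus-unacetylated windows, 36.2% of Oct4+ acetylated, 37.8% of DP active and 39.3% of all windows, and SOX (CATTGT) in 31.9%, 26.2%, 30.6% and 29.6%. Both motifs had their highest share in the consensus-unacetylated class, as did TCF/LEF.

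AP-1, TEAD, ESRRB, KLF, TFAP2 and the CTCF core had their lowest share there. AP-1 (TGANTCA) was in 11.7% of consensus-unacetylated, 14.0% of Oct4+ acetylated and 17.2% of DP active windows (13.9% of all), TEAD (GGAATG) in 25.7%, 27.5% and 32.5% (28.0%), ESRRB (AAGGTCA) in 10.4%, 14.1% and 12.6% (12%) and KLF (GGGNGTGG) in 21.8%, 25% and 23.4% (23.3%). The OCT octamer (ATTTGCAT) was in 1.92% against 3.21% of Oct4+ acetylated and 1.68% of active windows (2.18%), and STAT (TTCCNGGAA) in 50 windows or 2.29% (2.22% of all). FOXA (TGTTTAC) was in 7.75%, 4.73% and 8.38% (7.23%), TCF/LEF (ATCAAAG) in 7.56%, 6.33% and 5.68% (6.67%), TFAP2 (GCCNNNGGC) in 11.9%, 12% and 14.4% (13.1%) and the CTCF core (AGGNGGC) in 25.5%, 27.7% and 27.8% (27.2%). In 32851 RefSeq promoters of 300 bases, GATA was in 11.2% and TFAP2 in 16.6%, beside 36.6% and 9.30% of the consensus-unacetylated windows of that length. The consensus-unacetylated windows also had the lowest GC, and its part in these shares was not tested. A match describes letters, not binding.

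**Figure D4:**
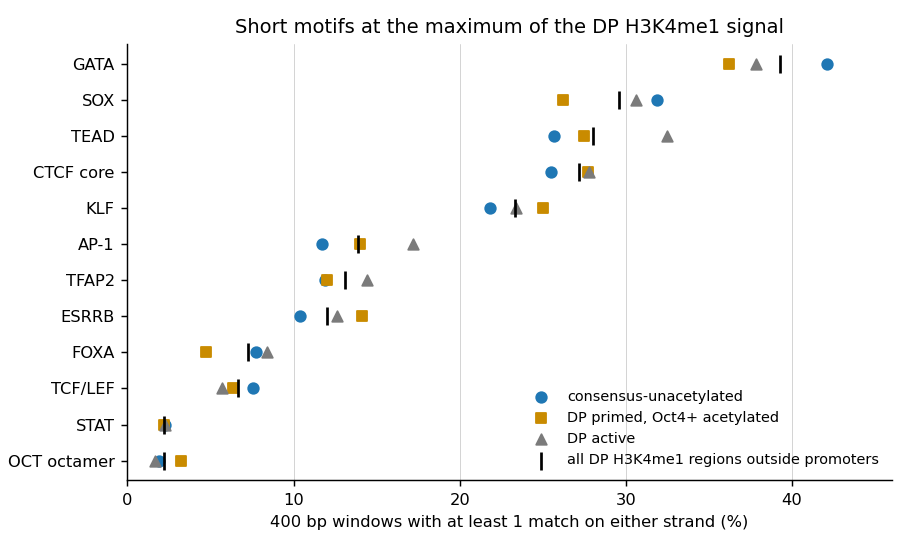
Percentage of 400 bp windows (x axis) with at least 1 match to each of 12 motifs (y axis), for the 3 classes (symbols) and all 5591 DP H3K4me1 regions outside promoters (black bars). Consensus-unacetylated windows lie above the bar for GATA (42.1% against 39.3%) and SOX (31.9% against 29.6%) and below it for AP-1, TEAD and ESRRB.

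The regions were unevenly spread over chromosomes. Chromosome 6 held 281 of them, 50% of its 562 DP H3K4me1 regions outside promoters, while on the other autosomes the share ran from 31.6% (chromosome 18) to 45.8% (chromosome 16). At 1.88 regions per Mb it had 2.21 times the median autosome (0.851 per Mb), the next densest reaching 1.42 times. DP active regions were not denser there (0.735 per Mb, 0.971 times the median). H3K4me1 peaks of all 9 libraries were denser on chromosome 6, at 1.38 to 2.63 times the median autosome, and it was the densest in 8 of 9, whereas H3K27ac lists ran from 0.767 to 1.085 times, H3K9me3 from 1.02 to 1.17 and H3K27me3 from 1.16 to 2.46. Median H3K4me1 maxima of DP peaks on chromosome 6 were 12, 18 and 13 in replicates 1 to 3, beside 11, 15 and 12 elsewhere. The part of this chromosome in the results was tested by leaving it out, which kept 1901 regions and the H3K9me3 differences at -1.90 and -1.52 points (adjusted p = 0.0176 for both, exact sign-flip tests).

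**Figure D5:**
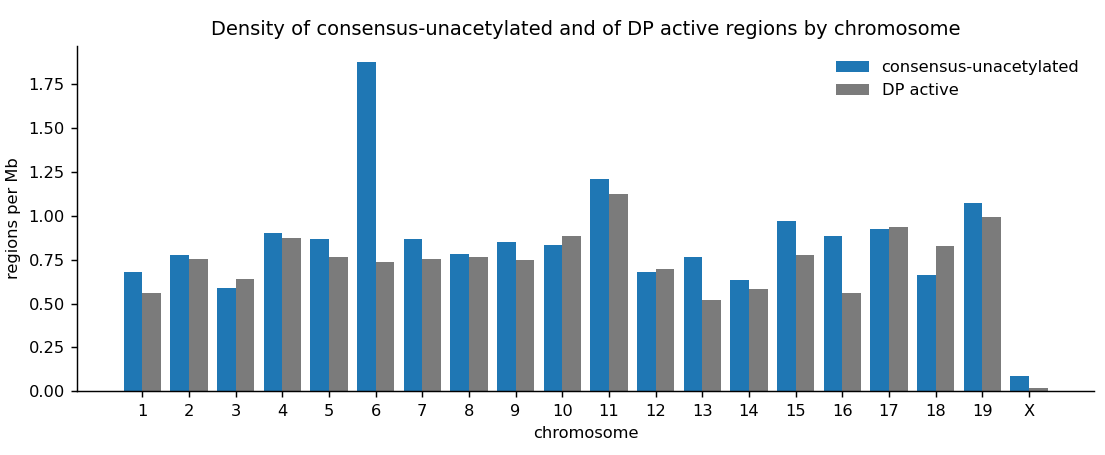
Number of regions per Mb (y axis) by chromosome (x axis) for consensus-unacetylated (blue) and DP active regions (grey). Chromosome 6 stands at 1.88 consensus-unacetylated regions per Mb, against a median autosome of 0.851, and at 0.735 active regions per Mb.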

How the data were processed

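CUT&Tag libraries of 4 marks in 3 sorted nEnd populations, 3 each, were analysed from the deposited peak lists, 1 per library; 3 IgG samples were not used here. The authors computed fragment coverage with BEDtools and called peaks against IgG with SEACR in stringent mode. The deposited values are signal (total and maximum coverage of each peak, whole numbers not scaled to depth). The submitters' processing notes name mm10, bcl2fastq 2.19.1, Bowtie2, SAMtools 1.12, deepTools, SEACR and bedtools 2.26.0. The sources used here do not state whether SEACR normalized its input. The study built its consensus peaks with DiffBind, while those here were merged intervals.

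Overlap of any length counted as a listed peak. Promoters and gene positions came from the GENCODE vM21 basic annotation on GRCm38, sequences from the RefSeq GRCm38 genome. Motifs were searched in 400 bp, and a gene was near a region with its TSS within 20 kb of an edge. Analyses used NumPy 2.4.6, SciPy 1.17.1, pandas 2.3.3 and Matplotlib 3.10.9 under Python 3.11.15. The tests were checked on simulated data, in which libraries were drawn independently of each other.

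Each test took libraries as its unit, by exact permutation, two-sided, with Benjamini-Hochberg adjustment over 9 tests and a threshold of 0.05. The study describes its replicates as biological, and the labels call the libraries replicates of 1 line without naming separate cultures, so p-values measure the spread between these libraries. Replicate numbers were not treated as pairs. The regions, gene lists and motifs were chosen with earlier results of these data known. The regions named were every listed gene with a region within 20 kb (1 of them is counted and not reported here), the 10 with the highest mean percentile of DP maximum signal, and up to 5 each, by the same rank, among those in all 9 H3K4me1 libraries, in DP alone, with Oct4+ H3K27me3 consensus, and with the most H3K9me3 libraries. Alternatives tried were the libraries needed, the overlap, the peak threshold, equal list lengths, the promoter window, a bar on any single H3K27ac peak, a 1 kb window, each library left out, the replicate block and, chosen after seeing the data, the comprehensive annotation and chromosome 6 left out.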

Additional observations from a re-analysis of the deposited data

Results flagged for a closer look

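The difference in H3K4me1 between consensus-unacetylated and Oct4+ acetylated primed regions was set apart because it ran in opposite directions in the sorted populations: negative in 3 of 3 Oct4+ libraries (mean -34.8 points) and positive in 3 of 3 Pdgfra+ libraries (2.28 points), a gap of -37.1 points. An exact permutation test of the gap gave p = 0.1, the smallest that 3 against 3 allows (adjusted p = 0.2 over 6 tests).

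The H3K9me3 difference from Oct4+ acetylated regions was set apart for its p between populations before adjustment (exact permutation test of the F statistic over 9 libraries, p = 0.0286, adjusted p = 0.0857), with a gap of -3.15 points between Oct4+ and Pdgfra+ libraries. The H3K9me3 difference from DP active regions was set apart for the same reason (same exact test, p = 0.0107, adjusted p = 0.0643), with a gap of -1.95 points. Neither passed the threshold after adjustment, so variation between populations was not shown.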

How the results depend on the processing

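Across 224 alternative values, 166 were counted as unchanged. For tests this meant the same direction and side of the threshold, also where neither value passed it. For counts of regions or genes it meant a change within a fixed ratio. For motifs it meant a shift within the confidence half-width of the share, whatever the sign. FOXA, at 0.52 points relative to all windows, was counted so with -0.03 points at 200 bp. The number of regions was 1385 when 3 of 3 libraries were needed, 1315 with the 50% of each list highest in total signal, 223 with lists of equal length, 1025 with no H3K27ac peak allowed in any library, and 1058 to 3417 with 1 replicate left out of every list. Of the H3K9me3 differences, that from Oct4+ acetylated regions lost its call with regions from at least 1 library (-1.05 points), from 3 of 3 (-2.09), with an overlap of 50% (-0.899), lists of equal length (-0.482) and the 1 kb window (-0.807), with adjusted p from 0.0879 to 0.512, and that from DP active regions with at least 1 library (-1.59), 50% overlap (-1.29) and the 1 kb window (-0.0659), with adjusted p from 0.0703 to 0.921 (exact sign-flip tests). With 1 library left out these differences ran from -1.68 to -1.11 and from -1.54 to -1.12 points, and with 1 replicate number left out of every list, which leaves 6 libraries, from -2.92 to -1.26 and from -2.73 to -0.508 points (adjusted p from 0.141 to 0.667, exact sign-flip tests).

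Direction turned for H3K27me3 against DP active regions with 3 of 3 libraries (-0.269 points), without Pdgfra+ replicate 3 (-0.0298, the lowest of -0.0298 to 0.337 with 1 library left out) and with a replicate number left out of every list (-0.337 to 0.631), and for H3K9me3 in DP minus Oct4+ with equal lists (-0.299 points). With 1 library left out, the Oct4+ minus Pdgfra+ difference ran from -18.5 to 6.97 points for H3K4me1 (from -25.0 to 3.02 with a replicate number left out of every list) and from -0.420 (without Oct4+ replicate 3) to 1.34 for H3K27me3. Relative to all DP regions, the H3K9me3 ratio in DP minus Oct4+ was 0.263 and passed the threshold (adjusted p = 0.0234, exact test). The cause of these changes was not tested. At 5 kb and 50 kb, the genes near a region were 262 and 2607 of all, 2 and 13 of pluripotency, 1 and 11 of endoderm, 0 and 3 of trophectoderm, 0 and 3 of formative and primed, 0 and 5 of JAK/STAT and 0 and 2 of mesoderm and neural genes.

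Same-numbered libraries did not deviate together at these regions for H3K4me1 (correlations from -0.0125 to 0.0107) or H3K9me3 (from -0.222 to 0.0872). For H3K27me3 the correlations were weak but all positive (0.181, 0.0873 and 0.182 in replicates 1 to 3). A permutation within the replicate block gave exact p = 0.75 for H3K4me1 (-9.32 points), 0.25 for H3K27me3 (0.687 points) and 0.889 for H3K9me3 (1.13 points). For the first 2, 3 pairs cannot give a p below 0.25, so no call was possible, and Oct4+ was above Pdgfra+ in 3 of 3 pairs for H3K27me3. Depth is unknown, so an absent peak limits every share.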

Other observations

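Some consensus-unacetylated regions lay in runs. In all 511 (23.4%) had another within 20 kb, in 235 groups, of which 5 held 4 or more. The same count was not made for other DP H3K4me1 regions, so runs were not shown to be particular to this class. The groups of 5 spanned 58.1 kb between Rassf8 and Bhlhe41 (chr6:145766484-145824597), the latter a basic helix-loop-helix repressor of the circadian clock, and 44.8 kb beside Vegfa, the vascular growth factor gene (chr17:45963177-46008004). Groups of 4 lay at Prickle2, a planar cell polarity gene (41.5 kb), at Suclg2, a succinyl-CoA ligase subunit (49.96 kb), and at Kdm6b, which encodes the H3K27 demethylase JMJD3 (34.8 kb). Of these 5 groups, 3 lay on chromosome 6. These groups were picked after their values were seen.

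The X chromosome held 19 DP H3K4me1 regions outside promoters, or 0.111 per Mb, of which 15 were consensus-unacetylated. In motif windows of 200 bp, GATA was in 28.4% of consensus-unacetylated and 26.3% of all windows, SOX in 19.8% and 18.4%, and AP-1 in 6.65% and 7.78%, in the same order as at 400 bp.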
